A study of Drosophila melanogaster and Drosophila simulans and Drosophila yakuba with 72 samples.

Results

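miR-278 was followed in 72 samples of whole Drosophila animals, hybridised as 36 pairs on a miRNA microarray. The members were the array's probes whose name, without the species prefix, was miR-278 with any arm suffix, and the rule found 7 of 1347 experimental probes. The study dealt with miRNA expression as metamorphosis begins, and with its differences between genotypes and sexes. Drosophila melanogaster was represented by the strains Zimbabwe-109, Samarkand, Oregon-R and Canton-S, D. simulans by the single stock 14021-0251.167 and D. yakuba by the single stock 14021-0261.00. Males were sampled in all of them, and females in D. simulans, Oregon-R and Zimbabwe-109. Each strain and sex was taken at an earlier stage, labelled as at least 18 before puparium formation and read here as hours, and at puparium formation (PF). The labels name no mutation or transgene in any group. All animals grew at 25 °C on food with 0.05% bromophenol blue, a dye whose clearing from the gut shows a larva's stage. RNA came from pools of 60 to 80 individuals (about 120 mg), so each of the 18 groups holds 4 pools, and each array carried both stages of the same replicate, labelled with opposite dyes (Cy3 and Cy5).

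A miRNA is a short RNA that guides Argonaute to messenger RNAs that pair with its seed, the bases near its 5′ end, and lowers their output. miR-278 is known in D. melanogaster as a regulator of energy homeostasis. Flies without it are lean, make more insulin and keep more sugar in circulation, and its described target in the fat body is expanded, a component of the Hippo growth pathway. Forced expression in imaginal tissue makes that tissue overgrow. In the RefSeq annotation the gene (mir-278, Dmel_CR42945) lies on chromosome arm 2R within the span of CG42524, between CG8204 and fus. The sequence of the probes is not shown here.

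The guide arm, the strand with the known targets, was read by 4 probes that share bases 2 to 8, the seed. Of these, dme-miR-278 is the probe listed for D. melanogaster and the one all values below refer to where no other is named. The water flea probe dpu-miR-278 differs from it at 1 base, position 21, the tick probe isc-miR-278 at 1 base, position 10, and the silkworm probe bmo-miR-278 at 2 bases, positions 10 and 11. No other tested probe on the array had the same seed. Since they differ by so little, the 4 probes may bind the same RNA and are not independent of each other. Over the 18 group means dme-miR-278 correlated with dpu-miR-278 at 0.92 and with isc-miR-278 at 0.68, on the same arrays. The other arm was covered by dme-mir-278-5p, bmo-miR-278* and the mosquito probe aae-miR-278, whose sequence resembles that arm rather than the guide.

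miR-278 gave a dim signal in these whole animals. The probe was detected, meaning above the median of the array's empty spots by more than 3 SD of them, in 48 of 72 samples, with 25 of 36 in Cy3 and 23 of 36 in Cy5. Its intensity less the empty spots ran from -13.1 to 441, on an array whose empty spots alone read 29.8 to 136 as medians. The guide probe dpu-miR-278 was detected in 58 samples, isc-miR-278 in 42 and bmo-miR-278 in 12. These 3, dme-miR-278, dpu-miR-278 and isc-miR-278, reached 3 detected samples in some group and were tested among 272 probes. The passenger arm was rarely above background: dme-mir-278-5p was detected in 1 of 72 samples, a D. simulans male pool of the earlier stage, and bmo-miR-278* and aae-miR-278 in 0 of 72. Not well above background says only that the signal could not be told from empty spots at this brightness.

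The labelled material was checked on other probes. The muscle miRNA miR-1 was detected in 72 of 72 samples, the gut miRNA miR-281 in 51 and the nervous system miRNA miR-124 in 13. The testis miRNA miR-964 was detected in 32 of 48 male and 9 of 24 female samples. A further testis miRNA, miR-974, was detected in only 5 of 48 male and 1 of 24 female samples. let-7, the miRNA that marks the onset of metamorphosis, rose by 4.35 to 5.37 on the log2 scale at PF across the 9 strain and sex sets. Checked beside it, miR-100 read higher at PF by 0.31 to 4.33 and miR-125 by 0.67 to 4.58. Each of this pair was detected in 1 of 36 earlier samples, so these are differences of measured signals. At PF miR-100 was detected in 32 of 36 samples and miR-125 in 33 of 36. Because whole animals were used, fewer cells that hold miR-278 and less miR-278 per cell cannot be told apart.

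The slides stand apart in miR-278 and matter for every comparison between strains and sexes. The 36 arrays lay on 7 slides, 5 with males, 2 with females and 0 with both, so sex and slide cannot be told apart. The probe was detected in 0 of the 10 samples on slide 4 (Samarkand and Zimbabwe-109 males) and in 12 of 12 on slide 6 (Oregon-R and Zimbabwe-109 females). Levels, given throughout as log2 of the normalized intensity, had medians of 6.08 on slide 4 and 7.13 on slide 6. The same strain differed between slides. Samarkand males averaged 6.69 in their 4 samples on slide 2 and 6.07 in their 4 on slide 4. Zimbabwe-109 females averaged 7.30 in 4 samples on slide 6 and 6.40 in 4 on slide 7. Samples of a strain on different slides are different pools, so a slide and a pool cannot be told apart either.

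**Figure D1:**
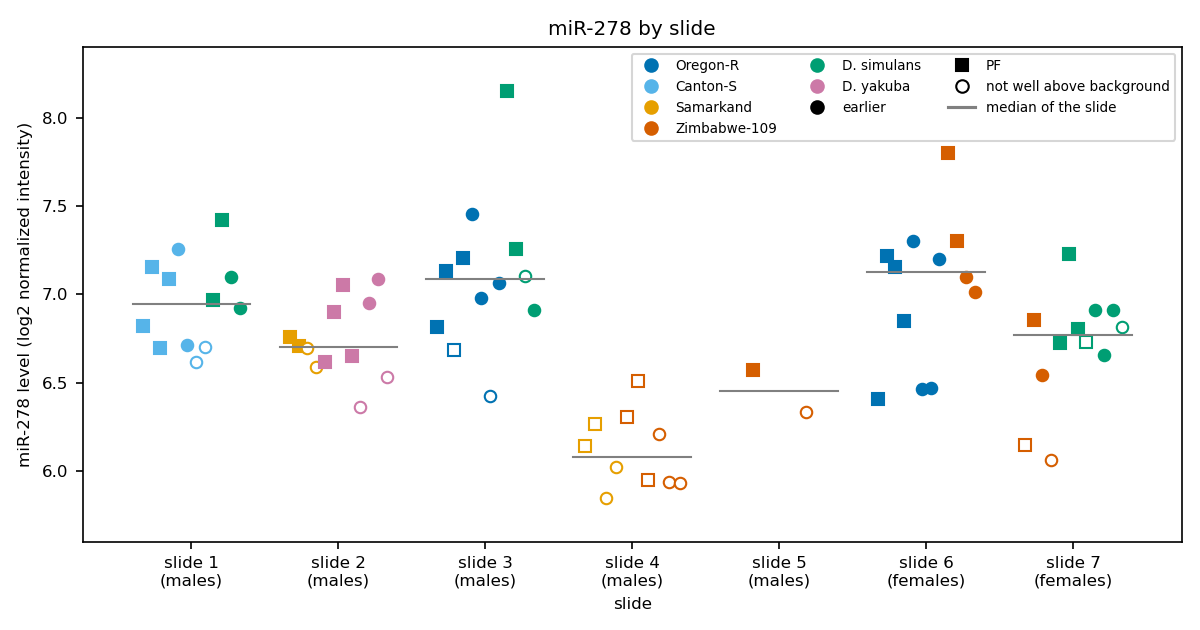
Each point is the miR-278 level (log2 normalized intensity) of 1 sample, placed by its slide. Colours give the strain, circles the earlier stage, squares PF, open points samples in which the probe was not well above background, and grey lines the slide medians, lowest on slide 4 (6.08, 0 of 10 detected) and highest on slide 6 (7.13, 12 of 12 detected).

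The order of the 18 group means ran from D. simulans males at PF (7.45 ± 0.51, SD, n = 4) to Zimbabwe-109 males at the earlier stage (6.10 ± 0.20). D. simulans males at PF stood 0.42 above the next group, Zimbabwe-109 females at PF (7.03 ± 0.70), which is the largest step between neighbours. Below them came D. simulans males at the earlier stage (7.01 ± 0.11), Oregon-R males earlier (6.98 ± 0.42) and at PF (6.96 ± 0.25), Canton-S males at PF (6.94 ± 0.22) and Oregon-R females at PF (6.91 ± 0.37). The middle held D. simulans females at PF (6.87 ± 0.24), Oregon-R females earlier (6.86 ± 0.45), D. simulans females earlier (6.82 ± 0.12), Canton-S males earlier (6.82 ± 0.29), D. yakuba males at PF (6.81 ± 0.21) and earlier (6.73 ± 0.34) and Zimbabwe-109 females earlier (6.68 ± 0.48). The lowest were Samarkand males at PF (6.47 ± 0.31), Zimbabwe-109 males at PF (6.33 ± 0.28), Samarkand males earlier (6.29 ± 0.42) and Zimbabwe-109 males earlier. In 0 of the 17 steps did neighbours differ by more than the larger of their SDs. All 4 samples were detected in 5 groups. In Samarkand and Zimbabwe-109 males at the earlier stage 0 of 4 were, so those means are measured values with only a bound on the true level.

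**Figure D2:**
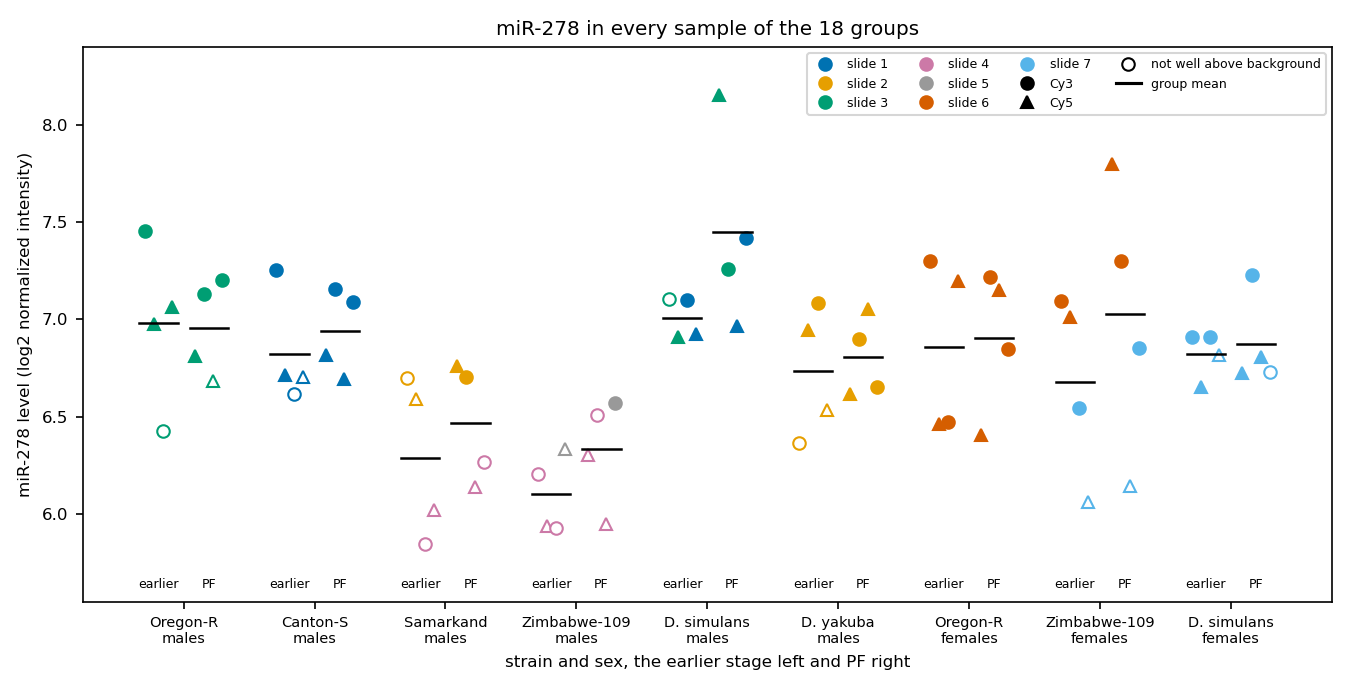
The miR-278 level (log2 normalized intensity) is plotted for each of 72 samples, grouped by strain and sex with the earlier stage left and PF right. Black lines are group means, colours slides, circles Cy3 and triangles Cy5, and open symbols mark samples not well above background; D. simulans males at PF lie highest (mean 7.45) and the earlier Zimbabwe-109 males lowest (mean 6.10).

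The first comparison asked whether miR-278 changes at puparium formation. It passed the test in 0 of the 9 strain and sex sets, while between 32.4% and 69.5% of the tested probes did. Differences are log2 PF minus earlier ± SE from limma, a linear model across all 272 probes with the array as a block, called at a Benjamini-Hochberg adjusted p under 0.05. The probe was higher at PF on 25 of 36 arrays, on 15 of 18 where PF was in Cy3 and on 10 of 18 where it was in Cy5, and dye was a term of the fit. Only 26 of the 272 probes, or 9.56%, were called in none of the 9 sets, and the probe dme-miR-278 was among them. The guide probes dpu-miR-278 and isc-miR-278 were not, since both were called in D. simulans males. The 95% intervals below reflect the spread between pools, as an estimate shared by all 18 groups. They are on the normalized scale, on which folds of dim probes are compressed. They do not bound the true change of a dim signal.

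In Oregon-R males the samples read 7.45, 6.98, 6.43 and 7.06 at the earlier stage and 6.81, 7.13, 6.68 and 7.20 at PF. The stages overlapped fully and the difference was -0.02 ± 0.19 (95% interval -0.41 to 0.37, adjusted p = 0.941), with 0 of 3 probes called against 32.4% of all. Canton-S males read 7.25, 6.72, 6.61 and 6.70, then 6.82, 7.16, 6.69 and 7.09 at PF. Here too the ranges overlapped, with a difference of 0.12 ± 0.19 (-0.27 to 0.51, adjusted p = 0.691) and 0 of 3 probes called against 46.7%.

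Samarkand males read 6.70, 6.59, 5.85 and 6.02 and at PF 6.76, 6.71, 6.14 and 6.27. All 4 arrays were higher at PF, by 0.06 to 0.29, but the fitted difference of 0.18 ± 0.19 (-0.21 to 0.57) did not pass (adjusted p = 0.506, 0 of 3 probes called against 43%). Zimbabwe-109 males read 6.21, 5.94, 5.93 and 6.34 and at PF 6.30, 6.51, 5.95 and 6.57. All 4 arrays were again higher at PF, by 0.02 to 0.57, with a fitted 0.23 ± 0.19 (-0.16 to 0.62, adjusted p = 0.317, 0 of 3 called against 55.5%). In both strains the earlier samples were not well above background, and no lower bound on the fold above 1 could be given. The size varied with the values used. On the authors' processed intensities, of unknown scaling, the differences were 3.56 in Samarkand males (adjusted p = 0.00161) and 2.32 in Zimbabwe-109 males (adjusted p = 0.0398). With plain subtraction of the empty spots they were 0.28 and 0.55, and neither was called. Median intensities less the empty spots were 3.74 earlier and 18.8 at PF in Samarkand males, and -1.39 and 21.4 in Zimbabwe-109 males. After centring of the authors' intensities on probes detected everywhere, only the Samarkand value (3.23) stayed under the threshold, and the Zimbabwe-109 value was 2.25.

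D. simulans males showed the largest stage difference of the 9 sets in the reported fit. Their samples read 7.10, 6.91, 7.10 and 6.92 at the earlier stage and 8.15, 7.26, 6.97 and 7.42 at PF. At PF 3 of the 4 lay above every earlier sample and 1 lay within their range. The difference of 0.44 ± 0.19 (0.05 to 0.83) missed the threshold at adjusted p = 0.0576. The near-identical probes passed it: dpu-miR-278 rose by 0.72 ± 0.23 (adjusted p = 0.00762) and isc-miR-278 by 0.75 ± 0.19 (adjusted p = 0.000969), so 2 of 3 probes were called against 46% of all.

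Replicate 1 carried much of the D. simulans male difference. On that array miR-278 was higher at PF by 1.05, against 0.35, -0.13 and 0.49 on the others, and without it the fitted value was 0.19. Without replicate 3, the array with the opposite sign, it was 0.60 (adjusted p = 0.0258). On the probe dpu-miR-278 the PF samples read 9.20, 8.11, 7.96 and 7.90, and on isc-miR-278 8.25, 7.25, 6.77 and 7.17, the same sample being highest on each. On dpu-miR-278 the earlier samples ran from 7.25 to 8.13, and 1 of the 4 PF samples lay above them. On isc-miR-278 all 4 PF samples lay above the earlier ones (6.49, 6.72, 6.63 and 6.59). Of those earlier samples 1 of 4 was detected, so the difference on isc-miR-278 is one of measured signals. How many of all tested probes separate the stages as isc-miR-278 does was not counted. The earlier sample of replicate 1 was on an array with a high empty-spot median in Cy3 (132.5) and was not well above background.

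D. yakuba males read 6.36, 6.95, 7.09 and 6.53 and at PF 6.62, 6.90, 7.05 and 6.65. The stages overlapped, with a difference of 0.07 ± 0.19 (-0.32 to 0.46, adjusted p = 0.805) and 0 of 3 probes called against 47.1%.

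Among females, Oregon-R read 7.30, 6.46, 6.47 and 7.20 and at PF 6.41, 7.22, 7.15 and 6.85. The arrays disagreed in sign, from -0.90 to 0.75, and the difference was 0.05 ± 0.19 (-0.34 to 0.44, adjusted p = 0.861, 0 of 3 called against 69.5%). Zimbabwe-109 females read 7.10, 7.01, 6.54 and 6.06 and at PF 7.80, 7.30, 6.15 and 6.85. The first pair of each lay on slide 6 and the second on slide 7, and 3 of 4 arrays were higher at PF, with a fitted 0.35 ± 0.19 (-0.04 to 0.74, adjusted p = 0.116, 0 of 3 called against 62.1%). Without replicate 3 this value was 0.56 (adjusted p = 0.0195). D. simulans females read 6.91, 6.65, 6.91 and 6.82 and at PF 6.72, 7.23, 6.81 and 6.73. Only 1 of their 4 arrays was higher at PF, and the difference was 0.05 ± 0.19 (-0.34 to 0.44, adjusted p = 0.953, 0 of 3 called against 39.3%).

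**Figure D3:**
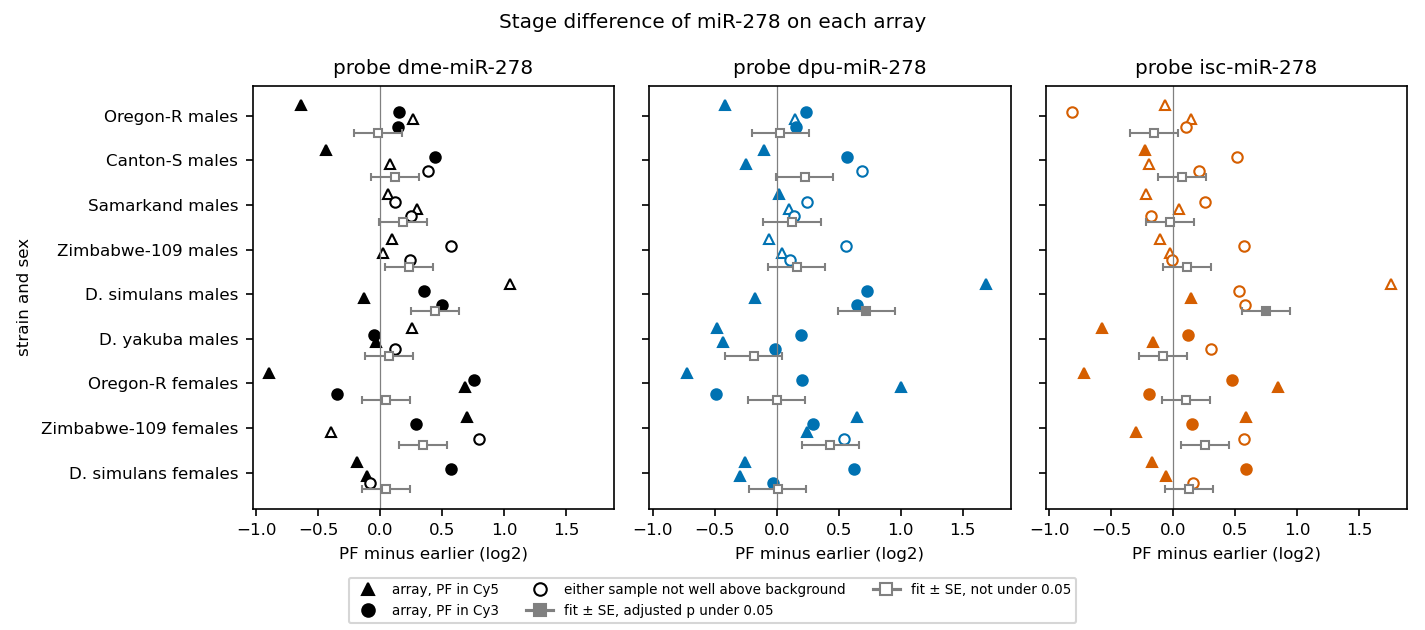
Points give PF minus earlier (log2) on each array for the 3 tested guide probes, triangles with PF in Cy5 and circles with PF in Cy3, open where either sample was not well above background. Grey squares give the fit ± SE, filled where the adjusted p is under 0.05, which holds for D. simulans males on dpu-miR-278 (0.72) and isc-miR-278 (0.75) and in 0 of 9 sets on dme-miR-278.

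The stage response itself was not shown to differ between sets. An F test of the stage difference among the 9 sets gave F = 0.62 for miR-278 (adjusted p = 0.808), with 0 of 3 probes called against 47.8%. The stage difference of D. simulans males lay above that of D. melanogaster males by 0.31 ± 0.22 (-0.12 to 0.75, adjusted p = 0.634, 0 of 3 called against 1.1%). For isc-miR-278 the same difference was 0.75 ± 0.22 with an adjusted p of 0.0684, the fourth smallest raw p of all probes. On the authors' intensities the miR-278 value turned to -0.91, and without D. simulans male replicate 1 it was 0.0603. In stage response D. yakuba males differed from those of D. melanogaster by -0.05 ± 0.22 (adjusted p = 0.868, 0 of 3 called against 19.9%). Males and females differed in stage response by -0.09 ± 0.19 in D. melanogaster (adjusted p = 0.79, 0 of 3 called against 25.4%) and by 0.39 ± 0.27 in D. simulans (adjusted p = 0.626, 0 of 3 called against 5.88%).

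The next comparison set the species side by side within a sex and stage. At puparium formation measured miR-278 was higher in D. simulans than in D. melanogaster males by 0.77 ± 0.20 (95% interval 0.37 to 1.18, adjusted p = 0.00477). On the normalized scale that is 1.71-fold. This SE and p measure the spread between pools, as an estimate shared by all 18 groups. The SD of D. simulans males at PF (0.51) lay above the median group SD (0.30), and a test on the spread of the compared groups alone was not run. D. simulans was a single stock, so variation between stocks or strains is not covered by them. The D. simulans samples spanned 6.97 to 8.15 and the 16 D. melanogaster samples 5.95 to 7.20. Of the 4 D. simulans samples, 3 exceeded every D. melanogaster male sample and 1 lay within their range. The signal stood well above background in all 4 D. simulans samples. Among D. melanogaster males it did so in 4 of 4 Canton-S, 3 of 4 Oregon-R, 2 of 4 Samarkand and 1 of 4 Zimbabwe-109 samples. The size of the difference is thus that of the measured signals. With plain subtraction of the empty spots it was 1.75 on the log2 scale. All 3 guide probes were called, dpu-miR-278 at 1.15 ± 0.24 (adjusted p = 0.000259) and isc-miR-278 at 0.78 ± 0.20 (adjusted p = 0.00434), against 10.7% of all probes. The call was lost without D. simulans replicate 1 (0.51, adjusted p = 0.128) and on the authors' intensities (1.51, adjusted p = 0.524).

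Against each strain the size of this difference varied. D. simulans males at PF lay above Oregon-R males by 0.49, Canton-S by 0.51, Samarkand by 0.98 and Zimbabwe-109 by 1.12. D. simulans shared slides with the first pair alone. On slide 3 its 2 samples exceeded the 4 Oregon-R samples by 0.75, and on slide 1 the other 2 exceeded the 4 Canton-S samples by 0.25. No slide held D. simulans males beside Samarkand or Zimbabwe-109 males, so for these strains species and slide cannot be told apart.

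At the earlier stage D. simulans males lay above D. melanogaster males by 0.46 ± 0.20 (0.05 to 0.87), which did not pass (adjusted p = 0.15, 0 of 3 probes called against 8.09%). All 4 D. simulans samples, 6.91 to 7.10, lay within the D. melanogaster range of 5.85 to 7.45. On shared slides the differences were 0.03 from Oregon-R and 0.19 from Canton-S. They were 0.72 from Samarkand and 0.91 from Zimbabwe-109, whose samples were not well above background. Counting the Zimbabwe-109 males at their bound, D. simulans (3 of 4 samples detected) was at least 1.14-fold higher on the measured means, without their spread. Against Samarkand no bound above 1 could be given.

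D. yakuba males did not separate from D. melanogaster males. They differed by 0.18 ± 0.20 at the earlier stage (-0.22 to 0.59, adjusted p = 0.52, 0 of 3 called against 29.4%) and by 0.13 ± 0.20 at PF (-0.28 to 0.54, adjusted p = 0.658, 0 of 3 called against 41.9%). On slide 2, which also held 2 Samarkand samples of each stage, D. yakuba exceeded Samarkand by 0.09 at the earlier stage and 0.07 at PF.

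Females of D. simulans and D. melanogaster lay close together. They differed by 0.05 ± 0.22 at the earlier stage (-0.39 to 0.50, adjusted p = 0.903, 0 of 3 called against 38.2%) and by -0.09 ± 0.22 at PF (-0.54 to 0.35, adjusted p = 0.744, 0 of 3 called against 34.6%). With slide as a term of the fit the values were 0.73 (adjusted p = 0.0156) and 0.58 (adjusted p = 0.0558). D. simulans females shared slide 7 with the lower pair of Zimbabwe-109 female pools, and Oregon-R females shared slide 6 with the higher pair.

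**Figure D4:**
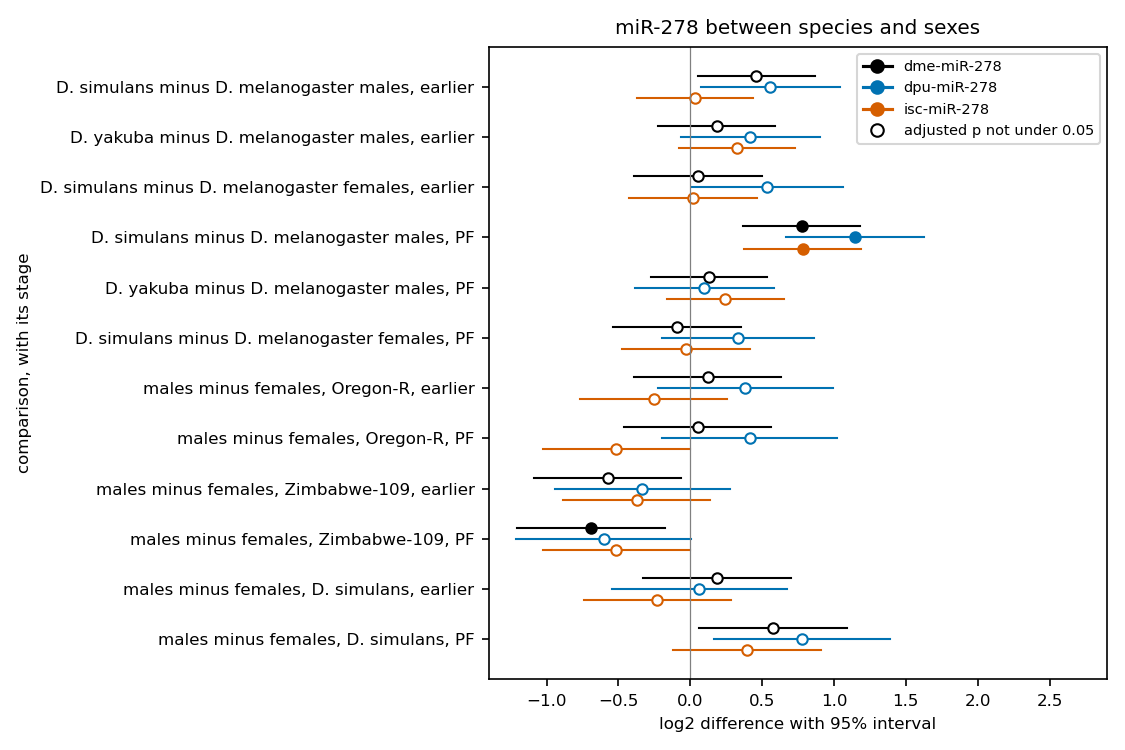
Log2 differences of the 3 tested guide probes between species and between sexes at each stage, with 95% intervals from limma. Filled points have an adjusted p under 0.05: all 3 probes for D. simulans minus D. melanogaster males at PF (0.77, 1.15 and 0.78), and dme-miR-278 alone for males minus females of Zimbabwe-109 at PF (-0.69).

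Among the 4 D. melanogaster strains, males differed in miR-278 at the earlier stage (F = 5.35, adjusted p = 0.00907). Samples ran from 6.43 to 7.45 in Oregon-R and 6.61 to 7.25 in Canton-S, against 5.85 to 6.70 in Samarkand and 5.93 to 6.34 in Zimbabwe-109. Oregon-R and Canton-S each overlapped Samarkand, and every Zimbabwe-109 sample lay below every Oregon-R and Canton-S sample. Such separation was not counted over all tested probes. Since Zimbabwe-109 was not well above background, the difference has bounds only, taken from measured means without their spread. Oregon-R (3 of 4 samples detected) was at least 1.12-fold higher. For Canton-S (2 of 4 detected) the bound was 1.00-fold, which neither shows a difference nor shows that there was none. Samarkand was not well above background either, and against it no bound above 1 could be given for Oregon-R or Canton-S. The probe dpu-miR-278 was called too (F = 5.58) and isc-miR-278 was not (F = 0.43, adjusted p = 0.83), so 2 of 3 probes passed against 39% of all. At PF the F was 3.13 (adjusted p = 0.0814), and dpu-miR-278 alone passed (F = 5.27, adjusted p = 0.0133), 1 of 3 against 34.2%.

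Strain and slide overlapped in part. Samarkand and Zimbabwe-109, the low strains, shared slide 4, where Samarkand minus Zimbabwe-109 was -0.09 at the earlier stage (2 and 3 samples) and -0.05 at PF. None of the 10 samples of slide 4 was detected, so these values set background readings against each other and do not compare the strains. Over all slides the measured difference was 0.19 and 0.13. Oregon-R males lay on slide 3 alone and Canton-S males on slide 1 alone, so their difference from the other strains cannot be told apart from that between slides.

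Between the sexes, 1 of 6 comparisons passed. In Zimbabwe-109 at PF males lay below females by 0.69 on the log2 scale (-0.69 ± 0.26, 95% interval -1.20 to -0.18, adjusted p = 0.0302), 1 of 3 probes called against 34.2%. Males read 5.95 to 6.57 and females 6.15 to 7.80, and the probe was detected in 1 of the 4 male and 3 of the 4 female samples, so the size is that of the measured signals. Of the 4 males 1 lay below the lowest female and 3 overlapped. The SE comes from the spread shared by all 18 groups. The SDs of the compared groups were 0.28 in males and 0.70 in females, the latter the largest of all groups. A test on their spread alone was not run. The call was lost without female replicate 1 (-0.41), female replicate 2 (-0.62) or male replicate 3 (-0.58). Those female replicates were the pair on slide 6, which read 7.80 and 7.30. The female pair on slide 7 read 6.15 and 6.85, the first within the male range and the second above it. No slide held both sexes, so sex and slide cannot be told apart here, and a difference within a slide was not tested. At the earlier stage, where males were detected in 0 of 4 samples and no lower bound on the fold above 1 could be given, the measured difference was -0.58 ± 0.26 (-1.09 to -0.06, adjusted p = 0.0945, 0 of 3 called against 25.7%).

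In Oregon-R males minus females was 0.12 ± 0.26 at the earlier stage (-0.39 to 0.63, adjusted p = 0.742, 0 of 3 called against 30.5%) and 0.05 ± 0.26 at PF (-0.46 to 0.56, adjusted p = 0.887, 0 of 3 called against 38.6%). On isc-miR-278 the PF value had the opposite sign, -0.51 ± 0.26 (adjusted p = 0.101), and all 4 males, 6.17 to 6.67, lay below every female, 6.68 to 7.17. That probe was detected in 0 of the 4 males, and the share of all tested probes that separate in this way was not counted. D. simulans leaned the other way from Zimbabwe-109, with males minus females at 0.19 ± 0.26 earlier (-0.33 to 0.70, adjusted p = 0.669, 0 of 3 called against 16.2%) and 0.58 ± 0.26 at PF (0.06 to 1.09, adjusted p = 0.132, 0 of 3 called against 15.4%). At PF 3 of 4 D. simulans males exceeded every D. simulans female.

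A test of whether the sex difference itself differed between strains was added after these values were seen. At PF the sex difference was lower in Zimbabwe-109 than in D. simulans by 1.27 on the log2 scale (-1.27 ± 0.36, adjusted p = 0.0139), 2 of 3 probes being called against 13.2%. Against Oregon-R it was -0.74 ± 0.36 (adjusted p = 0.25, 0 of 3 called against 5.15%). At the earlier stage the values were -0.76 ± 0.36 against D. simulans (adjusted p = 0.183, 0 of 3 called against 9.19%) and -0.70 ± 0.36 against Oregon-R (adjusted p = 0.218, 0 of 3 called against 14%). In each of these, sex differs by slide in every strain, and the Zimbabwe-109 males were detected in 1 of 4 samples at PF and 0 of 4 earlier, so these are differences of measured signals.

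Other miRNAs linked to growth and metabolism in flies were tested from a list of 7, all of which were among the tested probes. miR-9a, which acts on the sNPF receptor and body size, rose at PF in 9 of 9 sets, by 0.62 ± 0.23 in D. simulans females to 1.71 ± 0.23 in Zimbabwe-109 males. miR-305, which acts on insulin signalling in intestinal stem cells, rose in 8 of 9, by 0.65 to 1.52, and was at 0.00 ± 0.19 in D. simulans females. miR-277, which acts on branched-chain amino acid breakdown, fell in 6 of 9, from -0.55 in Samarkand males to -1.25 in D. yakuba males. miR-8, which acts in the fat body on insulin signalling, miR-33, which sits in the gene of the sterol regulatory element binding protein, and bantam, a growth regulator, were each called in 1 of 9. miR-14, which limits fat stores, was called in 0 of 9, as was miR-278. The SE of miR-14 was 0.60 in each set, against 0.19 for miR-278, so larger changes of miR-14 could be missed. The probes of miR-14, miR-33 and bantam were detected in 18, 8 and 27 of 72 samples, so their calls rest on dim signals as those of miR-278 do.

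In single sets the list held 1 to 3 members that rose and 0 or 1 that fell, beside the 32.4% to 69.5% of all tested probes called in those sets. The median stage difference of the list ran from -0.03 in Oregon-R males, where the median of all tested probes was 0.02, to 0.29 in Oregon-R females, where it was 0.16. In D. simulans males, the set with the largest miR-278 difference, 2 of the 7 rose and 0 fell, while 91 of all 272 probes rose and 34 fell, with a list median of 0.02 beside 0.15 over all probes. For D. simulans against D. melanogaster males at PF, where miR-278 was called, 1 of the 7 was higher and 0 were lower, and of all 272 probes 19 were higher and 10 lower, or 10.7% called.

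The miRNAs with the most similar pattern were ranked by Pearson correlation of the 18 group means with miR-278, among 57 probes listed for D. melanogaster and detected in at least 3 samples of at least 9 groups. The groups share arrays, slides and normalization, and the median over the 57 was 0.28. The highest were miR-11 (0.72), miR-276* (0.61), miR-279 (0.58), miR-998 (0.57), miR-31b (0.55) and miR-92b (0.54). Over the 12 male groups alone they were 0.71, 0.73, 0.59, 0.76, 0.68 and 0.78. The lowest were miR-964 (-0.43), the custom probe dme-wu-mir-2318-5p (-0.54) and the custom probe dme-mir-313-5p (-0.55).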

How the data were processed

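Per the file headers, each deposited scanner file gives the intensity of every spot in both channels, on a linear scale, and names the sample and dye. A service company labelled and hybridized the RNA (per the labels' protocols). Scanner and software were not stated in the labels or headers. The authors' own processed intensity table, whose scaling and centring are unknown (column medians 0.00375 to 5.04, rank correlation with the scanner values at least 0.777), served as an alternative. Of its sample columns 0 were left unused.

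The empty spots (689 an array) stood for background in limma's normexp correction, with an offset of 50, which compresses folds of dim probes. Loess within arrays and Aquantile between them followed, and the median of 3 spots was taken per probe. A probe entered the tests if at least 1 group had 3 detected samples, which left 272; 8 probes for 2S rRNA were dropped. A single linear model held all 18 groups (limma 3.58.1; statmod 1.5.0; R 4.3.3). Dye was a covariate, and the array, which per the file headers pairs the stages of a replicate number, was a random block (within-array correlation 0.43). Deviations of paired samples from their group means correlated above 0.1 on 26 of 36 arrays (-0.22 to 0.71). Adjusted p-values are limma's, by Benjamini-Hochberg within each contrast at 0.05. The fit was tested on simulated data. The design text calls the samples biological replicates, and p-values measure the spread between these pools. For each probe that spread is an estimate shared by all 18 groups, while the SDs of single groups for miR-278 ran from 0.11 to 0.70.

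A fold over a group that was not well above background is written "at least". There each dim sample counts at the lowest signal detected in it, or at the probe's own signal where that is higher. The members, the list and the tests were chosen with earlier results of these data known. Named were all miR-278 probes, the 6 most and 3 least similar probes, the list of 7 and, for the check of the labels, marker miRNAs of tissues and stage.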

Additional observations from a re-analysis of the deposited data

Results flagged for a closer look

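Of 54 checks of the 18 groups on 3 probes, 3 held a single sample far from the other 3, and chance gives about 1 in 20. In Canton-S males at the earlier stage replicate 1 read 7.25 on dme-miR-278, against 6.61 to 6.72 in the others. In D. simulans females at PF replicate 2 read 7.23, against 6.72 to 6.81. In D. simulans males at PF replicate 1 read 9.20 on dpu-miR-278, against 7.90 to 8.11, and it was also the highest sample on the other guide probes.

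At PF the difference of males from females was lower in Zimbabwe-109 than in D. simulans by 1.27 (-1.27 ± 0.36, limma adjusted p = 0.0139), in a test of the difference itself that was added after the data were seen. It was called in 5 of 10 alternatives, whose adjusted p ran from 0.0103 to 0.383, and it was not called without D. simulans male replicate 1 (-1.01, adjusted p = 0.0561). Males and females lay on separate slides in each strain, so sex and slide cannot be told apart.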

How the results depend on the processing

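Over the 28 planned comparisons and 4 added ones, 720 repeats were made under 11 settings and 36 left-out replicates, of which 635 kept direction and call, 19 lost the call, 19 gained it and 47 turned sign, 0 of these with a call. All values are log2 differences unless F is named, and for changes not named the cause was not tested. The higher level of D. simulans males at PF kept its direction in 10 of 10 settings and its call in 8. The other guide probes, dpu-miR-278 and isc-miR-278, count among these 8. The difference was 1.51 on the authors' intensities and 1.19 on these centred, and it was called on neither. Slide could not be a term of this comparison, nor of those among D. melanogaster strains or between the sexes. The F among D. melanogaster strains at the earlier stage was called in 9 of 10 and fell to 0.43 on isc-miR-278, and at PF it was called on dpu-miR-278 (5.27). Males minus females of Zimbabwe-109 at PF lost the call with plain subtraction of background (-1.53), the authors' intensities (-2.82; centred -1.72), without a filter on dim probes (-0.69, more probes being tested), on dpu-miR-278 (-0.60) and on isc-miR-278 (-0.52). At the earlier stage it was called with quantile normalization (-0.67) and on the authors' intensities (-4.93; centred -3.76).

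Stage differences gained calls in Samarkand males on the authors' intensities (3.56; centred 3.23), in Zimbabwe-109 males (2.32), in Zimbabwe-109 females with median centring (0.70) and in D. simulans males with median centring (0.80), the mean of the spots (0.48), slide as a block (0.44), dpu-miR-278 (0.72) and isc-miR-278 (0.75). The authors' intensities also called D. yakuba against D. melanogaster males at the earlier stage (2.65), quantile normalization called D. simulans against D. melanogaster males there (0.56) and slide as a block the females (0.73).

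Signs turned for differences that were not called in the reported fit, of 0.02 to 0.31 in size. For the stage difference these were Oregon-R males with median centring (0.0421), quantile normalization (0.0693) and dpu-miR-278 (0.0294); Oregon-R females on the authors' intensities (-0.38; centred -0.24) and dpu-miR-278 (-0.0012); Samarkand males on isc-miR-278 (-0.0231); D. simulans females on the authors' intensities (-0.0249); and D. yakuba males on these centred (-0.0066), dpu-miR-278 (-0.18) and isc-miR-278 (-0.0801). For D. simulans against D. melanogaster females they were plain subtraction (-0.0024) and the authors' intensities (-1.57; centred -1.38) at the earlier stage, and slide as a block (0.58) and dpu-miR-278 (0.33) at PF. Males minus females turned in Oregon-R at the earlier stage on the authors' intensities (-1.74; centred -0.92) and isc-miR-278 (-0.26), at PF with plain subtraction (-0.64), the authors' intensities (-1.71; centred -1.03) and isc-miR-278 (-0.51), and in D. simulans earlier on isc-miR-278 (-0.23). Differences in stage response turned for D. simulans males on the authors' intensities (-0.91; centred -0.73), for D. yakuba males with plain subtraction (0.85) and median centring (0.0118), and between the sexes of D. melanogaster with quantile normalization (0.0488) and the authors' intensities (1.07; centred 0.97).

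Leaving out each replicate in turn gave stage differences of -0.16 to 0.15 in Oregon-R males, 0.0478 to 0.265 in Canton-S males, 0.0970 to 0.245 in Samarkand males, -0.22 to 0.33 in Oregon-R females, 0.18 to 0.56 in Zimbabwe-109 females, 0.19 to 0.60 in D. simulans males, -0.0900 to 0.138 in D. simulans females and -0.0325 to 0.158 in D. yakuba males. D. simulans against D. melanogaster ran from 0.51 to 0.92 in males at PF, D. yakuba against D. melanogaster males from 0.0868 to 0.330 earlier and 0.0272 to 0.203 at PF, and D. simulans against D. melanogaster in females from -0.0392 to 0.123 earlier and -0.232 to 0.0465 at PF. Males minus females ran from -0.0339 to 0.33 earlier and -0.10 to 0.16 at PF in Oregon-R, and from -0.76 to -0.44 and -0.97 to -0.41 in Zimbabwe-109, and in D. simulans at PF from 0.318 to 0.721. The stage response of D. yakuba against D. melanogaster males ran from -0.159 to 0.0321, and that of males against females of D. melanogaster from -0.235 to 0.0385. The stage response of D. simulans males ran from 0.0603 to 0.470 against D. melanogaster males and from 0.138 to 0.547 against D. simulans females, its F among the 9 sets from 0.378 to 1.02, and the sex difference of Zimbabwe-109 against Oregon-R at PF from -1.02 to -0.461.

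Without the array pairing (no replicate block) D. simulans minus D. melanogaster males at PF stayed at 0.77, and the block changed no call of miR-278; it moved the count of called probes beyond 1.5 times in 6 of 28 comparisons. Plain subtraction did so in 25, the authors' intensities in 12 (centred 11), median centring in 5, no filter in 4, quantile normalization in 3, slide as a block in 2 of 16. For D. simulans against D. melanogaster males at PF, 29 probes were called, against 18 with plain subtraction and 13 on the authors' intensities; for the sexes of Zimbabwe-109 at PF, 93 against 29 with plain subtraction and 49 on the centred intensities. The median of all probes moved by over 0.1 in 21 of 25 comparisons on the authors' intensities (-1.44 to 1.21), in 14 on these centred (-0.81 to 0.30), in 10 with plain subtraction (-0.65 to 1.81) and in 8 with median centring (-0.05 to 0.36). Testing only probes detected in all 72 samples was not run, since miR-278 is not among them, and slide could be a term in 16 of 28 comparisons. The dim signal limits every value: 48 of 72 samples were detected.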
